A study of Mus musculus with 12 samples.

Results

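Semaphorins, plexins, ephrins, Eph receptors, Slits, Robos, netrins and the netrin receptors Dcc and Unc5 are the classical families of guidance cues and their receptors. Members were chosen by gene symbol alone, and 68 of the 53090 gene rows matched. Of these, 64 had a summed count of at least 100 over all libraries and are described here: 20 semaphorins, 9 plexins, 8 ephrins, 14 Eph receptors, 3 Slits, 3 Robos, 2 netrins and 5 netrin receptors. The other 4 (Ntn5 and 3 antisense transcripts of Plxna4) stayed below that sum. All 64 also passed the filter on low counts.

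RNA was recovered from retinas of C57BL/6 mice by immunoprecipitating ribosomes through an HA tag, and was sequenced at postnatal day 9 (P9, 6 libraries) and postnatal day 3 (P3, 6 libraries). Mice of both ages had been injected with tamoxifen on postnatal days 1 and 2, so the time since injection was longer at P9 and cannot be told apart from age. The cell type given is retinal pericytes. The labels do not give the driver that switches on the tag or say how many animals went into a library, and RNA from before the immunoprecipitation was not analysed here. Library totals ran from 26839599 to 37776172 expected counts, and 1 CPM (a unit of counts relative to the scaled library total) corresponded to 25.8 to 38.5 counts. A CPM value is not divided by gene length, so levels are compared between ages for a gene and not between genes. Gene coordinates below are those of RefSeq on GRCm38.p6, and gene IDs are those of the count files.

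Guidance cues steer growing axons and vessel sprouts by attracting or repelling them. Semaphorins signal through plexins, with neuropilins as co-receptors of most class 3 members. Ephrins are membrane-bound ligands of the Eph receptor tyrosine kinases and can signal in both directions: ephrin-A proteins are held by a lipid anchor, whereas ephrin-B proteins span the membrane. Slits repel cells that carry Robo receptors, and netrins attract through Dcc and repel through Unc5 receptors. In the developing retina these families direct ganglion cell axons, arrange the synaptic layers and shape the vessels, and the ephrin-B2 and EphB4 pair marks arterial and venous identity.

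Most guidance genes were lower at P9 than at P3. Of the 64 genes, 35 fell (54.7%), 11 rose (17.2%) and 18 missed the threshold, an adjusted p of 0.05 in edgeR's quasi-likelihood test. Among all 18638 genes tested, 25.6% fell, 26.1% rose and 51.8% were called in either direction. The median log2 fold change, P9 over P3, was -0.47 for the guidance genes and -0.0018 for all genes. For 34 of the 64 genes (53.1%) the libraries of the ages did not overlap, against 31.7% of all genes. Among the 52 members with a mean of at least 10 CPM, 31 fell and 10 rose (59.6% and 19.2%), while of the 10963 genes at that level 32.5% fell and 30.7% rose. Ligands and receptors had like counts: 18 of 33 ligand genes fell and 6 rose, and 17 of 31 receptor genes fell and 5 rose. At least 2-fold falls were seen for 11 of the 64 members, a share of 17.2% (against 8.01% of all genes). At least 2-fold rises were seen for 7 of the 64, a share near the 10% of all genes. The falls reached 11.5-fold (Robo3) and 9.38-fold (Epha8), and the rises 4.38-fold (Unc5d) and 4.13-fold (Unc5b). In bulk RNA, fewer cells of a type and less RNA per cell cannot be told apart.

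**Figure D1:**
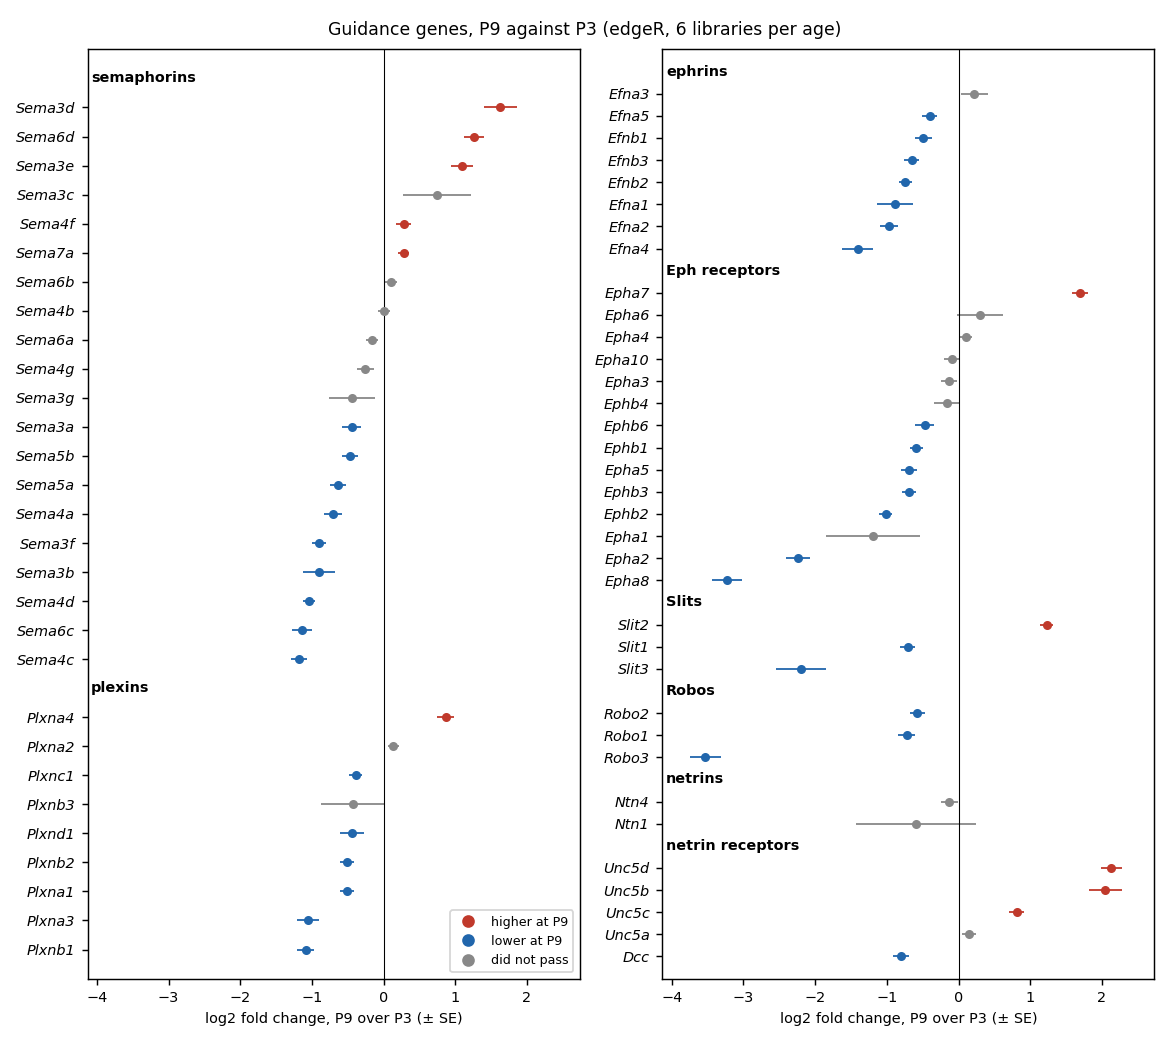
Log2 fold change of each of the 64 guidance genes, P9 over P3, with its standard error as a bar (horizontal axis, log2 units), grouped by family. Red points rose, blue points fell and grey points missed the threshold. Robo3 and Epha8 lie farthest to the left and Unc5d and Unc5b farthest to the right.

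The libraries also differed in the transcripts of other retinal cells. Markers of pericytes (10 genes, among them Pdgfrb and Rgs5) summed to 2700.0 to 6079.9 CPM at P9 and 237 to 1204 CPM at P3, and 9 of the 10 rose. In the same libraries all 9 rod markers rose, with sums of 6148 to 14164 CPM at P9 against 701 to 1861 CPM at P3. Of 10 retinal progenitor markers 9 fell and 1 rose, with sums of 886 to 1113 CPM at P9 and 1991 to 6142 CPM at P3. All 10 lens markers fell (60.1 to 1701 CPM at P9, 3960.1 to 11876 CPM at P3). Of 10 ganglion cell markers 6 rose and 1 fell, and of 8 amacrine markers 4 fell and 2 rose. No marker on these lists was at 0 in all libraries. The part of these cells in the changes of the guidance genes was not tested.

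Some libraries stood apart. P3 replicates 4 and 5 lay nearest to P9 on the first principal component (scores of -45.6 and -46.04, against -92.5 to -68.99 for the other P3 libraries). They had the highest pericyte sums of that age (1076 and 1204 CPM) and the lowest progenitor sums (2004 and 1991 CPM). P9 replicate 3 lay nearest to P3 (score of 46.7, against 63.7 to 80.0 for the other P9 libraries). It had the lowest rod sum (6148 CPM) and the highest progenitor sum (1113 CPM) of that age. Without P9 replicate 3, 10 members rose and 36 fell. P3 replicate 1 had a fibroblast marker sum of 554 CPM, while the other P3 libraries had at most 167 CPM. Sample names are crossed between the labels and files of P9 replicates 5 and 6, both of which are P9. Without P3 replicates 4 and 5, 11 members rose and 35 fell; without P3 replicate 1 the counts were again 11 and 35, and without P9 replicates 5 and 6 they were 11 and 33.

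**Figure D2:**
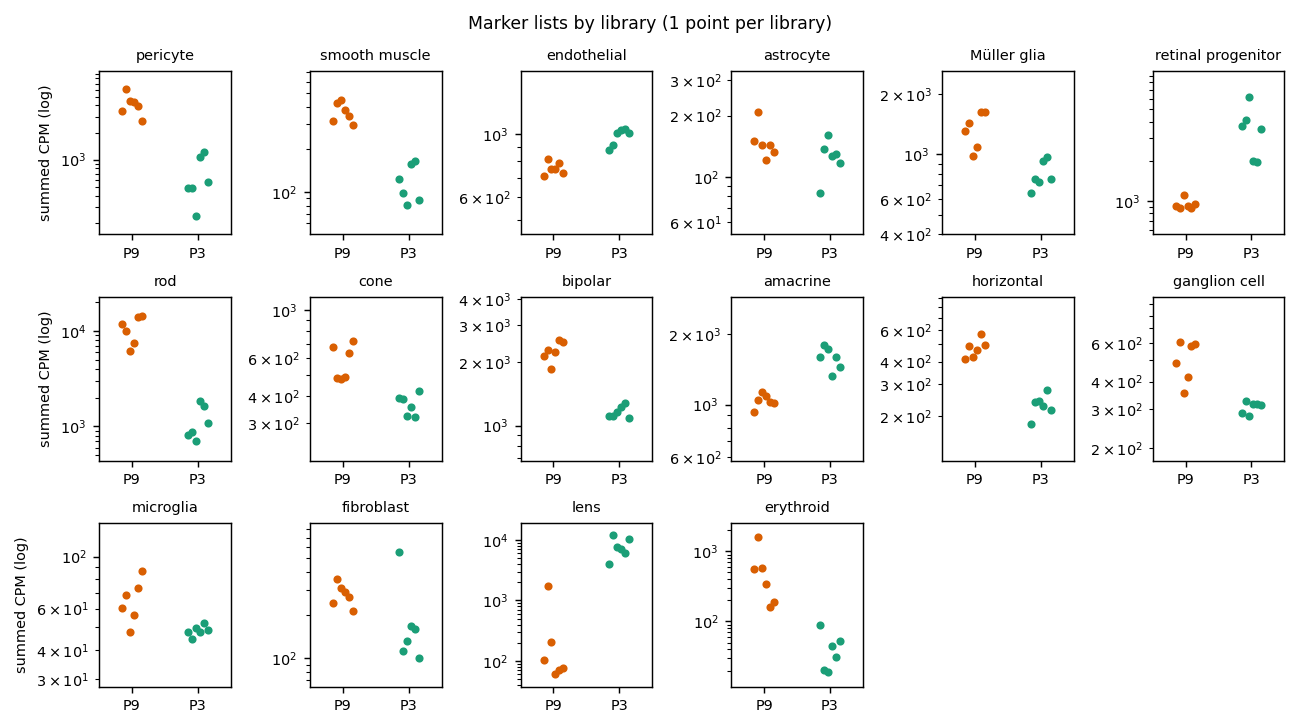
Summed CPM of each marker list in each library (vertical axes on a log scale; 1 point per library, P9 in orange on the left and P3 in green on the right of each panel). Pericyte, smooth muscle, Müller glia, rod, cone, bipolar, horizontal, ganglion cell and erythroid sums were higher in every P9 library than in every P3 library. Progenitor, amacrine, endothelial and lens sums were lower. The endothelial sum was mostly Kdr, the 1 endothelial marker that fell, while 6 of the 10 rose. The horizontal sum was mostly Prox1 (means of 426 CPM at P9 and 180 CPM at P3). Of the 5 horizontal markers 3 rose and 1, Onecut2, fell. At P3 the bipolar sum was mostly Otx2 (mean of 1033 CPM), the 1 bipolar marker that fell, while 7 of the 8 rose.

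**Figure D3:**
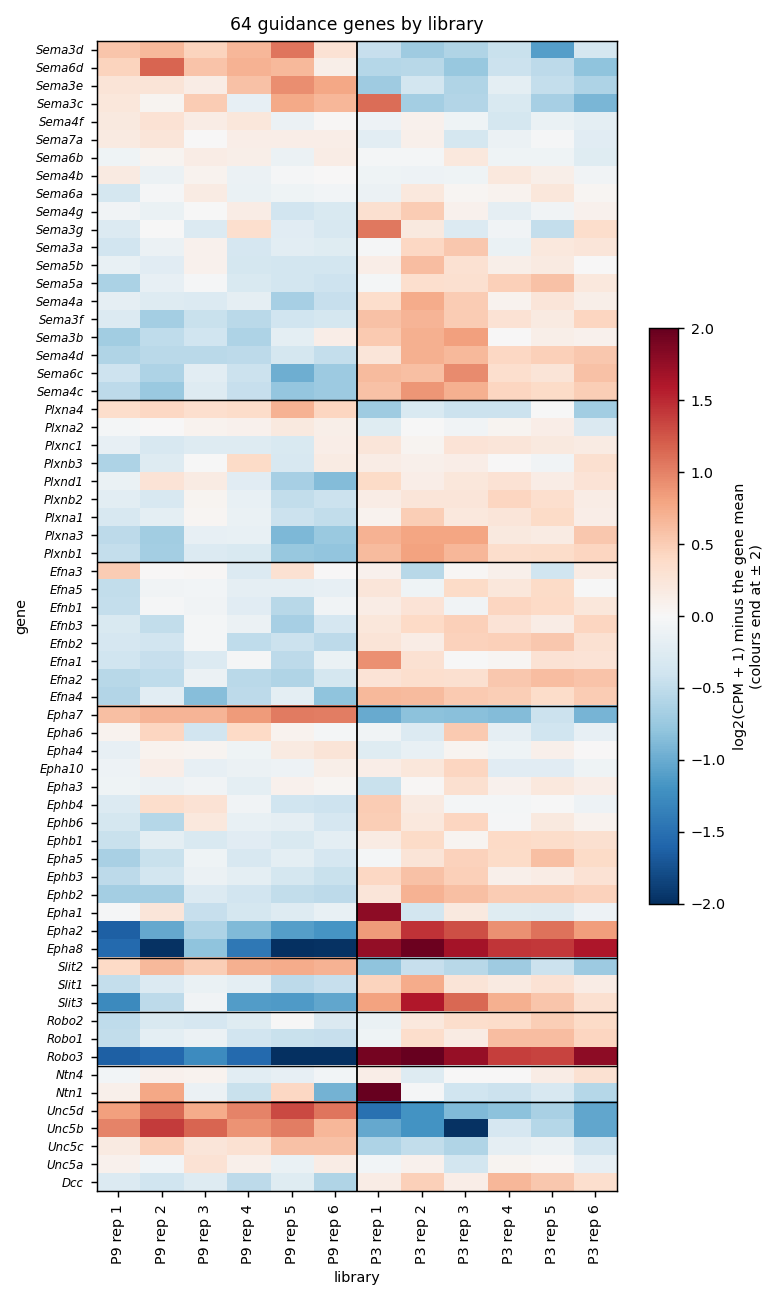
Level of the 64 guidance genes in each library, as log2(CPM + 1) minus the mean of the gene over all 12 libraries (red above, blue below; colours end at 2 log2 units from the mean), with P9 libraries left of the line and P3 libraries right of it. Families are separated by lines. Robo3 and Epha8 show the strongest contrast, and P3 replicate 1 stands out for Ntn1, Epha1, Sema3c and Sema3g.

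Among the semaphorins, 9 of 20 fell (45%) and 5 rose (25%), with a median log2 fold change of -0.35. Of all genes 25.6% fell and 26.1% rose, so the share of rises was near that of all genes. Classes 3, 4 and 6 each held members that rose and members that fell, both class 5 genes fell, and the single class 7 gene rose. Sema3d, a secreted class 3 semaphorin that can repel axons and vessels, had 4.14, 5.397 and 7.89 CPM at P9 (lowest, median and highest library), against 0.955, 1.92 and 2.29 CPM at P3. Every P9 library lay above every P3 library, and the level rose 3.09-fold (log2 fold change 1.63 ± 0.23, adjusted p = 4.11e-05; errors of log2 fold changes are standard errors). Sema3e binds plexin D1 directly, without a neuropilin, and is made in the retina by ganglion cells. It had 12.99, 15.98 and 22.8 CPM at P9, against 6.71, 7.66 and 9.95 CPM at P3, again with no overlap, a 2.13-fold rise (log2 fold change 1.09 ± 0.16, adjusted p = 4.42e-05). Of the 10 ganglion cell markers in these libraries 6 rose, 1 fell (Pou4f1) and 3 did not pass. Their sum was 356 to 608 CPM at P9 and 279.9 to 326 CPM at P3. The part of these cells in the rise of Sema3e was not tested. Sema6d (chromosome 2, 124089943 to 124667789), a transmembrane semaphorin that signals through plexin A1 and other class A plexins, had 64.2, 90.9 and 134 CPM at P9, against 33.5, 39.7 and 43.6 CPM at P3. P9 replicate 2 was the highest library and P9 replicate 6 the lowest of its age, still above all P3 libraries (2.396-fold, log2 fold change 1.26 ± 0.14, adjusted p = 3.69e-06).

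The strongest falls among the semaphorins were those of transmembrane members. Sema4c, a ligand of plexin B2, had 42.3, 47.1 and 60.8 CPM at P9 (lowest, median and highest library), against 95.1, 107 and 136 CPM at P3, without overlap (log2 fold change -1.18 ± 0.11, adjusted p = 7.07e-07). Its relative Sema4d, the ligand of plexin B1 and best known from lymphocytes, had 34.9, 37.00 and 41.9 CPM at P9, against 63.8, 77.1 and 88.6 CPM at P3, and was 2.05-fold lower at P9 without overlap (log2 fold change -1.04 ± 0.082, adjusted p = 1.80e-07). Sema6c, a close relative of Sema6d, had 23.8, 32.97 and 41.1 CPM at P9, against 57.2, 72.6 and 92.9 CPM at P3. The ages did not overlap, and the direction was opposite to that of Sema6d (log2 fold change -1.14 ± 0.14, adjusted p = 7.63e-06). Sema3a, the repellent that signals through neuropilin 1 and class A plexins, had 9.53, 10.8 and 13.6 CPM at P9, against 11.5, 15.1 and 18.95 CPM at P3. The ages overlapped, and the fall of 1.36-fold passed (adjusted p = 0.0125) but lost its call without P9 replicates 5 and 6 (adjusted p = 0.0532). The semaphorin gene that took the most counts, Sema4g, had 286, 349 and 413 CPM at P9, against 329.9, 397 and 532 CPM at P3, overlapping between the ages (adjusted p = 0.0894). It passed as lower at P9 in 3 of 23 alternative analyses, one of them without P3 replicates 4 and 5 (adjusted p = 0.0170).

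The other semaphorins are given by their means and folds. Sema3f, a repellent that acts through neuropilin 2, averaged 129 ± 12.8 CPM at P9 and 242 ± 31.1 CPM at P3 (SD, n = 6 per age) and fell 1.87-fold without overlap. Sema3b (1.87-fold), Sema4a (1.63-fold), Sema5a (1.56-fold) and Sema5b (1.38-fold) fell too. Sema5a and Sema5b are transmembrane repellents that confine the processes of inner retinal neurons in mice. Sema7a, the lipid-anchored semaphorin, and Sema4f rose by 1.21-fold and 1.21-fold with overlapping libraries. The Sema4f call was lost in 12 of 23 alternative analyses, with adjusted p values up to 0.129. Sema3g, Sema4b, Sema6a and Sema6b did not pass, with log2 fold changes of -0.44, 0.00122, -0.16 and 0.10. Sema3c averaged 3.16 ± 1.01 CPM at P9 and 1.89 ± 1.99 CPM at P3 and did not pass (adjusted p = 0.208). The highest P3 library was replicate 1 (5.91 CPM, the next P3 library 1.604 CPM), which also held the high fibroblast sum. Without that library Sema3c rose at P9 (log2 fold change 1.53, adjusted p = 0.000921).

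Plexins, the semaphorin receptors, fell in 6 of 9 cases and rose in 1 (median log2 fold change -0.44). Those shares were 66.7% and 11.1%, against 25.6% and 26.1% of all genes. Plxnb1 (chromosome 9, 109093849 to 109119915), the receptor of Sema4d, had 270.5, 312 and 385 CPM at P9 (lowest, median and highest library), against 597, 677 and 818 CPM at P3. Its libraries did not overlap, and it was 2.12-fold lower at P9 (log2 fold change -1.09 ± 0.11, adjusted p = 2.26e-06), as was its ligand gene Sema4d by 2.05-fold. Plxna3, a partner of neuropilin 2 in Sema3f signalling, had 103, 127 and 175 CPM at P9, against 216, 297 and 335 CPM at P3, also without overlap (log2 fold change -1.06 ± 0.15, adjusted p = 4.41e-05). Plxna1 had 124, 146 and 179.9 CPM at P9, against 184, 205 and 247 CPM at P3, the ages lying close together but apart (log2 fold change -0.51 ± 0.10, adjusted p = 0.000599). Plxna4, which together with neuropilin 1 transmits Sema3a signals and binds class 6 semaphorins, was the plexin that rose. It had 57.5, 59.7 and 73.9 CPM at P9, against 27.3, 33.3 and 45.2 CPM at P3, with no overlap (1.82-fold, log2 fold change 0.87 ± 0.12, adjusted p = 2.18e-05).

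Plxnd1, the Sema3e receptor known from sprouting endothelial cells, had 28.3, 46.3 and 63.7 CPM at P9 (lowest, median and highest library), against 57.8, 62.8 and 68.7 CPM at P3. The P9 libraries were spread widely: replicates 5 and 6 were lowest, and replicates 2 and 3 lay within the P3 range. The fall of 1.36-fold passed narrowly (log2 fold change -0.44 ± 0.16, adjusted p = 0.0352). It was lost in 12 of 23 alternative analyses, among them 8 of the 12 that left out a single library. Without P9 replicates 5 and 6 the log2 fold change was -0.22 (adjusted p = 0.125). Of the 10 endothelial markers 6 rose and 1 fell, Kdr, which neural retina also expresses and which averaged 603 CPM at P9 and 926 CPM at P3. Their sum, Kdr included, was 711 to 814 CPM at P9 and 875 to 1041 CPM at P3. Plxnb2 and Plxnc1 fell 1.43-fold and 1.31-fold. Plxna2 averaged 387 ± 21.9 CPM at P9 and 352 ± 39.01 CPM at P3 and did not pass (adjusted p = 0.174), although it passed as higher without P3 replicates 4 and 5 (adjusted p = 0.0300). Plxnb3 was near the limit of measurement, at 0.6699 ± 0.419 CPM at P9 and 0.906 ± 0.1802 CPM at P3, and did not pass.

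Ephrin genes fell almost throughout: 7 of 8 passed as lower at P9 and none as higher, with a median log2 fold change of -0.70. The falls made up 87.5% of the family, against 25.6% of all genes. Efnb2 (chromosome 8, 8617235 to 8661242), the arterial ephrin-B that mural cells also need to cover small vessels in mice, had 51.5, 55.99 and 72.7 CPM at P9 (lowest, median and highest library), against 82.8, 97.5 and 109 CPM at P3. The ages did not overlap; P9 replicate 3 was the highest of its age. The fall was 1.67-fold (log2 fold change -0.74 ± 0.10, adjusted p = 1.48e-05). In the same libraries 9 of 10 pericyte markers rose. Of 10 endothelial markers 6 rose and 1 fell, and of 10 retinal progenitor markers 9 fell and 1 rose. The part of these cells in the fall of Efnb2 was not tested. Efnb3 and Efnb1, the other ephrin-B genes, fell 1.57-fold and 1.405-fold. The ephrin-A genes with the largest falls had low counts. Efna4 had 1.17, 1.67 and 2.404 CPM at P9, against 4.07, 4.598 and 5.12 CPM at P3 and did not overlap (2.65-fold lower, log2 fold change -1.41 ± 0.22, adjusted p = 8.37e-05). Efna2, an ephrin-A known for guiding retinal axons in their targets, had 7.03, 7.41 and 10.2 CPM at P9, against 13.6, 15.5 and 17.6 CPM at P3 (1.95-fold lower, log2 fold change -0.97 ± 0.12, adjusted p = 1.17e-05).

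Efna1, an ephrin-A of vessels and epithelia, had 1.36, 1.68 and 2.33 CPM at P9, against 2.36, 3.11 and 5.38 CPM at P3. The highest P3 value was that of replicate 1, and the remaining libraries of the ages lay close together without overlap (log2 fold change -0.89 ± 0.25, adjusted p = 0.00777). Efna5, which with Efna2 maps retinal axons along the nasal to temporal axis, averaged 22.9 ± 2.43 CPM at P9 and 30.2 ± 4.11 CPM at P3 and fell 1.32-fold (adjusted p = 0.00495). Efna3 averaged 6.93 ± 1.53 CPM at P9 and 5.96 ± 1.34 CPM at P3 and did not pass (adjusted p = 0.358).

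Of the 14 Eph receptor genes, 7 fell, 1 rose and 6 did not pass (median log2 fold change -0.53). Falls made up 50% and rises 7.14% of the family, against 25.6% and 26.1% of all genes. Of the 5 EphB genes 4 fell, while the 9 EphA genes held both the largest fall and the single rise of the family. The start regions of these 2 EphA genes are shown because they moved in opposite directions. Each sequence runs from 250 bases before to 50 bases after a RefSeq transcript start in GRCm38.p6, 5′ to 3′ on the strand of the gene. Capitals mark GGGCGG, the core of the GC box bound by Sp1-like factors, on either strand (CCGCCC), and TAATCC on either strand (GGATTA), the core bound by photoreceptor homeodomain factors such as Crx. Neighbouring GGGCGG matches can share bases, as in the run of 10 capitals in the first sequence, which holds 2.
Epha8 (chr4:136956767-136957066, minus strand): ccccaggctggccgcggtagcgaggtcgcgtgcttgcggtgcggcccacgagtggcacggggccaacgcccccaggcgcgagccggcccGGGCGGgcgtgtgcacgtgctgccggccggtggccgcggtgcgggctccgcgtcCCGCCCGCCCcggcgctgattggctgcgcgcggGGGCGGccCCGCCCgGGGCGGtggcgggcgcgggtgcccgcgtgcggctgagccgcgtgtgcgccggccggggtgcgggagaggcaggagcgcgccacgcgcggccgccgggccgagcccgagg
Epha7 (chr4:28812881-28813180, plus strand): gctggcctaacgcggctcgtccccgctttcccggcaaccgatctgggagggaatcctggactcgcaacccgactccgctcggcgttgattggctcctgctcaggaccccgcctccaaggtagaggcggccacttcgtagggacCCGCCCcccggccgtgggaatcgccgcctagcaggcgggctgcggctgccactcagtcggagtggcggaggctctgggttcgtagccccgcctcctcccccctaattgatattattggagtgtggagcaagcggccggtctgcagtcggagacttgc
GGGCGG had 6 matches in the Epha8 window and 1 in the Epha7 window, and TAATCC had 0 in both. At least 1 match to GGGCGG was held by 35.7% and to TAATCC by 7.06% of the 32851 start regions in the table. The TATA box core TATAAA, found in 13.6% of all start regions, had 0 matches in these and in the Robo3 and Unc5b windows shown further on, and the E-box CANNTG, found in 72.3%, had 1 in Epha8, 2 in Robo3 and 0 in the others (both strands searched). The bases G and C made up 84.3% of the Epha8 window and 67.0% of the Epha7 window, against a median of 52.7% over all windows.

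Epha8 (ENSMUSG00000028661.8, chromosome 4, 136929419 to 136956859), a receptor of ephrin-A ligands first described in the nervous system, took the most counts of the Eph genes. It had 68.5, 87.6 and 170.0 CPM at P9 (lowest, median and highest library), against 789, 925 and 1154 CPM at P3. The highest P9 library (replicate 3) was still far below the lowest P3 library (replicate 5), and the level was 9.38-fold lower at P9 (log2 fold change -3.23 ± 0.21, adjusted p = 4.03e-08). P9 replicate 3 also had the highest progenitor marker sum of its age (1113 CPM, the others at most 946 CPM). A part of progenitors in the level of Epha8 was not tested. Epha7 (ENSMUSG00000028289.12, chromosome 4, 28813066 to 28967503), another receptor of ephrin-A ligands, had 46.8, 52.7 and 63.6 CPM at P9, against 14.6, 16.3 and 22.2 CPM at P3. All P9 libraries lay at least 2.11-fold above the highest P3 library, and the rise was 3.23-fold (log2 fold change 1.69 ± 0.11, adjusted p = 5.11e-08).

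Epha2 (ENSMUSG00000006445.3, chromosome 4, 141301221 to 141329384), a receptor prominent in epithelia and lens fibre cells, had 5.99, 9.43 and 13.1 CPM at P9, against 37.96, 42.5 and 58.3 CPM at P3, without overlap (4.73-fold lower, log2 fold change -2.24 ± 0.17, adjusted p = 1.24e-07). All 10 lens markers were lower at P9 too, and their part in the fall of Epha2 was not tested. The P9 library with the highest lens sum (replicate 2, 1701 CPM) had 9.74 CPM of Epha2, and the highest Epha2 of that age was 13.1 CPM in replicate 3, with a lens sum of 209.9 CPM. At P3, replicate 2 was highest for both. Ephb2, which receives ephrin-B signals in ganglion cell axons from the ventral retina, had 78.3, 88.3 and 104 CPM at P9, against 149.6, 179.8 and 205 CPM at P3 and fell 2.02-fold with no overlap (log2 fold change -1.02 ± 0.091, adjusted p = 5.04e-07). Ephb3 (1.61-fold), Epha5 (1.61-fold), Ephb1 (1.503-fold) and Ephb6 (1.38-fold), the last a member without kinase activity, fell as well.

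Ephb4 (chromosome 5, 137350109 to 137374522), the venous receptor of ephrin-B2, had 9.12, 10.9 and 16.1 CPM at P9 (lowest, median and highest library), against 11.6, 12.2 and 18.2 CPM at P3. The ranges overlapped in part, and the difference did not pass (log2 fold change -0.17 ± 0.17, adjusted p = 0.441). Epha4, a receptor of both ephrin classes, averaged 47.5 ± 5.23 CPM at P9 and 44.2 ± 4.03 CPM at P3 and did not pass. Epha10, a member without kinase activity, averaged 57.4 ± 5.37 CPM at P9 and 61.3 ± 11.6 CPM at P3 and did not pass either. Epha3, a receptor of ephrin-A5, averaged 26.5 ± 1.97 CPM at P9 and 29.04 ± 4.97 CPM at P3, and passed as lower only when P3 replicate 1 was left out (adjusted p = 0.0468). Epha6 averaged 1.72 ± 0.5404 CPM at P9 and 1.400 ± 0.6098 CPM at P3 and did not pass. Epha1 averaged 0.575 ± 0.288 CPM at P9 and 1.33 ± 1.82 CPM at P3, of which P3 replicate 1 alone had 5.02 CPM and the next P3 library 1.01 CPM, and did not pass (adjusted p = 0.14).

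**Figure D4:**
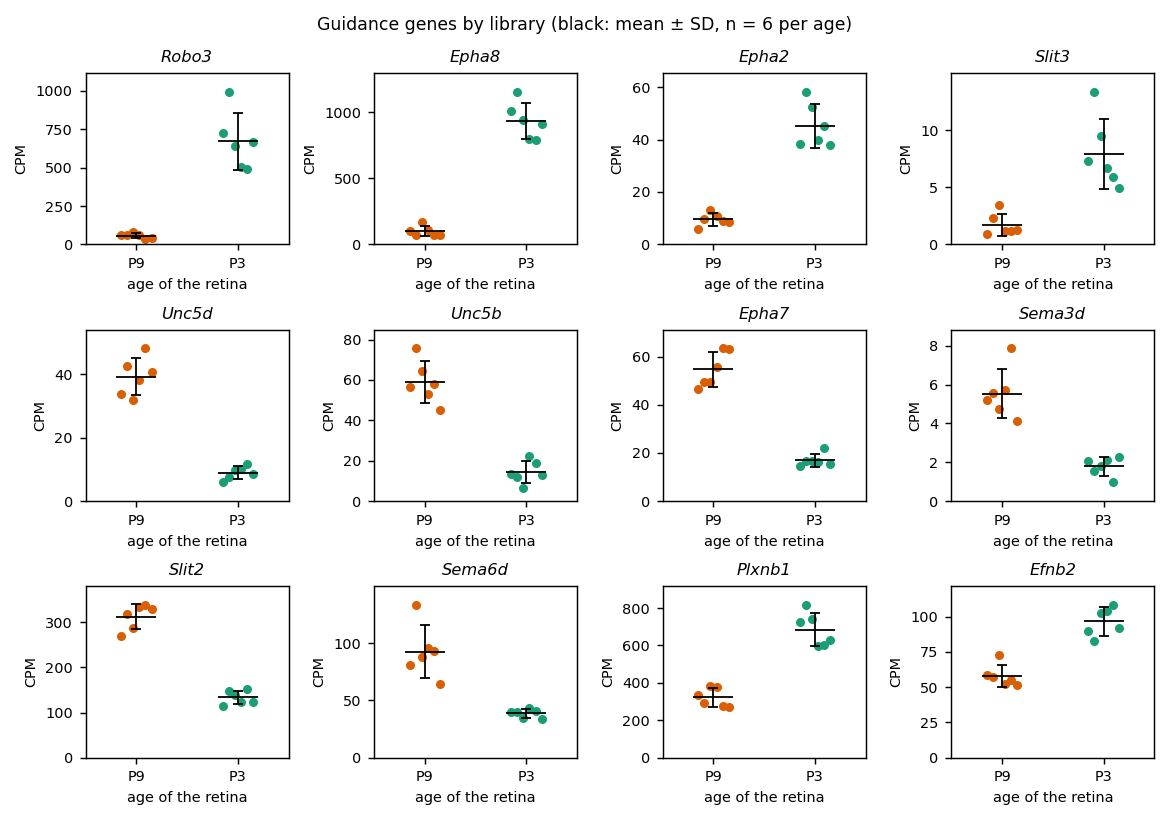
CPM of 12 guidance genes in each library (P9 in orange on the left, P3 in green on the right; vertical axes start at 0), with the mean and SD of 6 libraries in black. In each panel the points of the ages do not overlap; Robo3, Epha8, Epha2, Slit3, Plxnb1 and Efnb2 are lower at P9, and Unc5d, Unc5b, Epha7, Sema3d, Slit2 and Sema6d are higher.

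The 3 Slit genes encode secreted repellents, and they did not move together. Slit2 (ENSMUSG00000031558.15, chromosome 5, 47981291 to 48307735) had 269.9, 324 and 339.6 CPM at P9 (lowest, median and highest library), against 116, 131 and 152 CPM at P3. All P9 libraries lay above all P3 libraries, and the rise was 2.35-fold (log2 fold change 1.23 ± 0.088, adjusted p = 7.62e-08). Slit1 had 33.00, 36.8 and 43.5 CPM at P9, against 53.2, 58.03 and 80.6 CPM at P3, in the opposite direction and also without overlap (1.64-fold lower, log2 fold change -0.71 ± 0.11, adjusted p = 7.80e-05). Slit3 had 0.9501, 1.24 and 3.47 CPM at P9, against 4.91, 6.98 and 13.4 CPM at P3, lower at P9 with no overlap (4.59-fold, log2 fold change -2.20 ± 0.34, adjusted p = 8.70e-05), with the largest standard error of the 3. Slit2 and Slit3 each carry a copy of the microRNA miR-218 inside the gene, a microRNA described to repress Robo1 and Robo2. The RefSeq mature sequence is the same from both loci, shown 5′ to 3′ with the seed (bases 2 to 8) in capitals.
mmu-miR-218-5p from Mir218-1 in Slit2 (chr5:48223966-48223986, plus strand): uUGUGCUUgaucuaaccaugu
mmu-miR-218-5p from Mir218-2 in Slit3 (chr11:35616840-35616860, plus strand): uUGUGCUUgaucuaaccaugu
The host genes moved apart, Slit2 up and Slit3 down; the microRNA itself is not measured by these mRNA libraries.

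All 3 Robo genes, which encode the Slit receptors, fell, against 25.6% of all genes. Robo1, a Slit receptor of axons and vessels, had 48.97, 51.9 and 63.5 CPM at P9 (lowest, median and highest library), against 65.01, 91.2 and 107 CPM at P3. The ages did not overlap, and it was 1.65-fold lower at P9 (log2 fold change -0.72 ± 0.12, adjusted p = 0.000128). Robo2, the Slit receptor that ganglion cell axons use, had 105, 122 and 149 CPM at P9, against 137, 193 and 213 CPM at P3, with a small overlap between the highest P9 and the lowest P3 library (1.49-fold lower, log2 fold change -0.58 ± 0.10, adjusted p = 0.000317). Robo3 (ENSMUSG00000032128.15, chromosome 9, 37416045 to 37433436), the divergent member that lets commissural axons cross the midline and that in mammals binds Slits weakly, had 36.6, 62.4 and 79.9 CPM at P9, against 489, 654 and 994 CPM at P3. The highest P9 library was far below the lowest P3 library. The fall of 11.5-fold was the largest of all 64 members (log2 fold change -3.53 ± 0.22, adjusted p = 2.72e-08). P3 replicate 2 was the highest library and P3 replicates 4 and 5 were the lowest of that age, at 502 and 489 CPM. Those 2 libraries also had the lowest progenitor sums of P3, while the highest progenitor sum was that of P3 replicate 3 (6142 CPM), with 643 CPM of Robo3. Their pericyte and rod sums were the highest of P3. Whether any of these cells had a part in the level of Robo3 was not tested. The start region of Robo3 held 3 GGGCGG matches and 1 TAATCC match, in capitals as above, and 63.3% G and C.
Robo3 (chr9:37433126-37433425, minus strand): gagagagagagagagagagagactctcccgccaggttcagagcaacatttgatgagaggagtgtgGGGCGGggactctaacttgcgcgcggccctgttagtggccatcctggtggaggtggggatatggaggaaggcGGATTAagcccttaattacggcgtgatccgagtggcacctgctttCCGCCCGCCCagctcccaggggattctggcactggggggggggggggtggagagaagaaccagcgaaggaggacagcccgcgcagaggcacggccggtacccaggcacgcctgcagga

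Of the 5 netrin receptor genes 3 rose, 1 fell and 1 did not pass: Unc5b, Unc5c and Unc5d rose, Dcc fell, and Unc5a missed the threshold. Rises made up 60% and falls 20% of these 5 genes, against 26.1% and 25.6% of all genes. Unc5b (ENSMUSG00000020099.8, chromosome 10, 60762594 to 60831581), the repulsive netrin receptor of endothelial tip cells, had 45.3, 57.4 and 75.8 CPM at P9 (lowest, median and highest library), against 6.36, 13.2 and 22.2 CPM at P3. All P9 libraries lay above all P3 libraries, and the rise was 4.13-fold (log2 fold change 2.04 ± 0.23, adjusted p = 4.06e-06). Unc5b was highest in P9 replicate 2 (75.8 CPM) at P9, and in replicates 4 and 5 (22.2 and 18.7 CPM) at P3. Both the pericyte and the endothelial sums were highest in the same libraries, at 6079.9 and 814 CPM in P9 replicate 2. Most of the endothelial sum was Kdr, which neural retina also expresses and which averaged 603 CPM at P9 and 926 CPM at P3. In P3 replicates 4 and 5 the endothelial sums were 1028 and 1041 CPM, and the rod sums were the highest of that age as well. The part of these cells in the level of Unc5b was not tested. The start region of Unc5b held 3 GGGCGG matches and no TAATCC match, with 69.7% G and C.
Unc5b (chr10:60831532-60831831, minus strand): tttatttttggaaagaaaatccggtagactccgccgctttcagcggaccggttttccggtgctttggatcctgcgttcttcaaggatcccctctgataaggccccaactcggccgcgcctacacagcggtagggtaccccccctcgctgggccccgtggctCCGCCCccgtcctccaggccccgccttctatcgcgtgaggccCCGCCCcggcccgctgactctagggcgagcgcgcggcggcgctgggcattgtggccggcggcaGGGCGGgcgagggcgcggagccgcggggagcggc

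Unc5d (ENSMUSG00000063626.6, chromosome 8, 28646717 to 29219671), a netrin receptor of neurons that also binds the FLRT adhesion proteins, had 31.96, 39.5 and 48.3 CPM at P9, against 6.05, 9.16 and 11.6 CPM at P3. The ages did not overlap, and the rise of 4.38-fold was the largest of all members (log2 fold change 2.13 ± 0.15, adjusted p = 7.26e-08). Unc5c, a receptor that keeps axons away from netrin sources, had 54.2, 63.2 and 72.4 CPM at P9, against 30.95, 34.9 and 43.7 CPM at P3, also without overlap (1.75-fold, log2 fold change 0.81 ± 0.11, adjusted p = 2.22e-05). Unc5a averaged 34.2 ± 3.68 CPM at P9 and 30.96 ± 3.49 CPM at P3 and did not pass (adjusted p = 0.223). Dcc, the attractive netrin receptor that takes ganglion cell axons out of the eye, had 15.2, 18.4 and 19.6 CPM at P9, against 25.9, 31.3 and 37.6 CPM at P3. Its libraries did not overlap, and it was 1.75-fold lower at P9 (log2 fold change -0.80 ± 0.11, adjusted p = 2.86e-05).

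Neither netrin gene passed in either direction. Ntn4, a netrin of basement membranes that is made by vessel cells, had 9.15, 10.3 and 11.5 CPM at P9 (lowest, median and highest library), against 8.78, 11.3 and 13.5 CPM at P3, with overlapping ages (log2 fold change -0.13 ± 0.12, adjusted p = 0.389). Ntn1, the founding attractant of commissural axons, made in the retina at the optic disc, had 0.0302, 0.972 and 2.39 CPM at P9, against 0.331, 0.545 and 6.94 CPM at P3. The highest value by far was P3 replicate 1, whose nearest P3 neighbour had 0.963 CPM, and the lowest P9 value rested on 1 count. The difference did not pass (log2 fold change -0.60 ± 0.83, adjusted p = 0.575), and without P3 replicate 1 its sign turned (log2 fold change 0.91, adjusted p = 0.291).

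The guidance families rely on co-receptors and on effectors inside the cell. Of 55 such partner genes, 17 fell, 14 rose and 24 did not pass, shares of 30.9% and 25.5% against the 25.6% and 26.1% of all genes, with a median log2 fold change of -0.11. Most partners had a mean of at least 10 CPM, and of all genes at that level 32.5% fell and 30.7% rose. The neuropilins, co-receptors of class 3 semaphorins and of VEGF, did not pass: Nrp1 had 22.8, 36.7 and 42.9 CPM at P9, against 30.2, 38.4 and 41.8 CPM at P3 (adjusted p = 0.865) and Nrp2 had 36.98, 40.1 and 49.9 CPM at P9, against 33.4, 39.7 and 62.6 CPM at P3 (adjusted p = 0.733). Neo1, the Dcc relative that binds repulsive guidance molecules, had 190.2, 206 and 217 CPM at P9, against 183, 215 and 266 CPM at P3 and did not pass either (adjusted p = 0.279). The ranges of these 3 receptors overlapped at the 2 ages.

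The largest rise among the partners was that of Ntng1, a lipid-anchored netrin-G that binds Lrrc4c rather than Dcc or Unc5. It had 24.5, 40.5 and 50.8 CPM at P9 (lowest, median and highest library), against 5.78, 7.12 and 8.44 CPM at P3, without overlap (5.61-fold, log2 fold change 2.49 ± 0.16, adjusted p = 4.03e-08). Mical2, a flavoprotein of the family that oxidises actin downstream of plexins, had 26.00, 30.4 and 43.4 CPM at P9, against 9.42, 12.98 and 15.6 CPM at P3 (2.46-fold higher, adjusted p = 2.03e-06), and Farp2, an exchange factor that acts early in Sema3a signalling, had 19.00, 22.1 and 29.02 CPM at P9, against 8.22, 9.58 and 12.5 CPM at P3 (2.302-fold higher, adjusted p = 5.85e-06). Both had no overlap between the ages. The largest falls were those of Mical1, the founding member of the same oxidase family, with 20.99, 27.6 and 31.9 CPM at P9, against 44.9, 64.99 and 83.1 CPM at P3 (2.37-fold lower, adjusted p = 9.49e-06), and of Kalrn, an exchange factor that acts with EphB receptors in spines, with 34.6, 42.2 and 48.9 CPM at P9, against 76.9, 90.9 and 113 CPM at P3 (2.24-fold lower, adjusted p = 6.68e-07). Draxin, a secreted ligand that binds Dcc and netrin, had 9.53, 10.96 and 17.6 CPM at P9, against 24.03, 25.3 and 31.2 CPM at P3 (2.22-fold lower, adjusted p = 9.80e-06). None of these 3 overlapped between the ages. Ntng2, named here after its values were seen, fell 2.07-fold while Ntng1 rose, at 86.1 ± 9.01 CPM at P9 and 178 ± 29.5 CPM at P3.

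**Figure D5:**
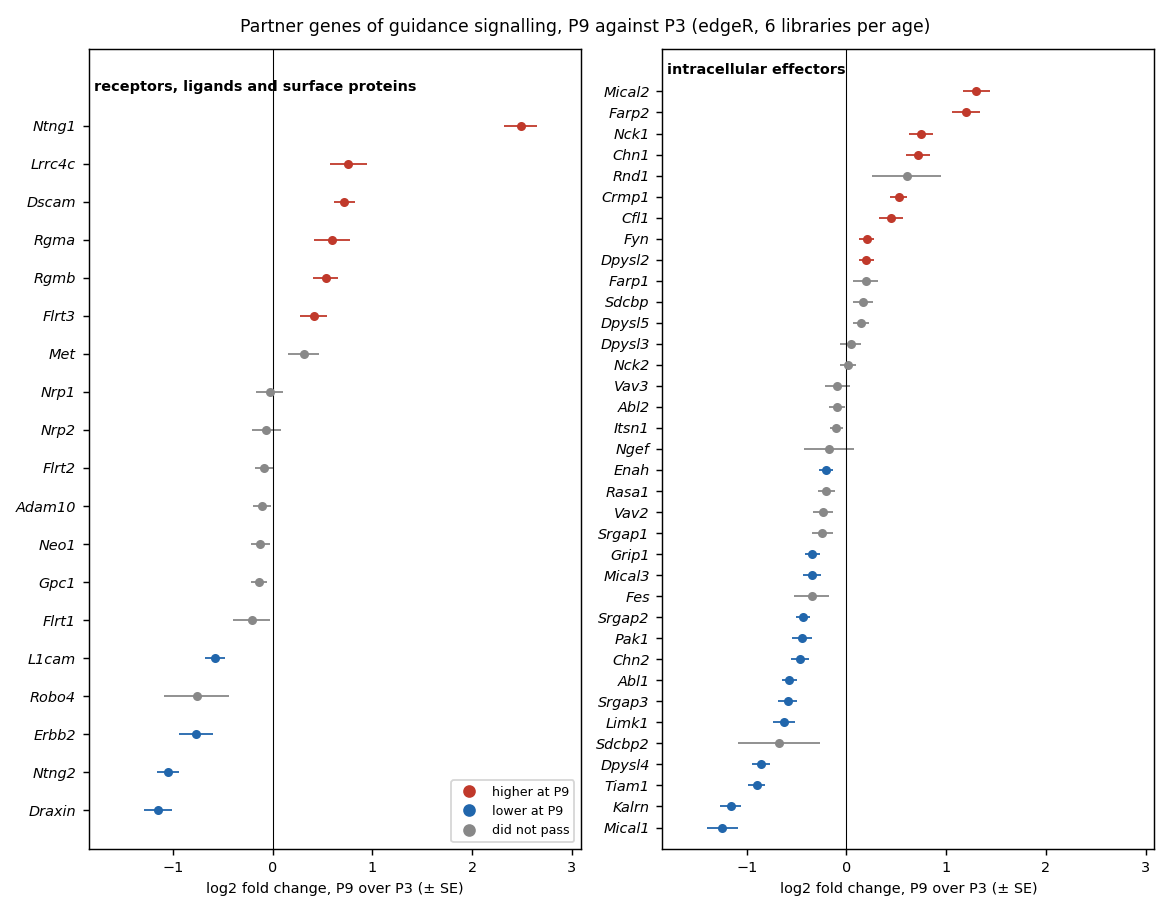
Log2 fold change of 55 partner genes, P9 over P3, with its standard error as a bar (horizontal axis, log2 units), for surface proteins (left, 6 higher and 4 lower of 19) and intracellular effectors (right, 8 higher and 13 lower of 36). Red points rose, blue points fell and grey points did not pass. Among all genes tested 26.1% were higher and 25.6% lower at P9. Ntng1 lies farthest to the right.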

How the data were processed

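Each deposited file holds expected counts from RSEM for 1 library, which are estimated reads per gene without scaling for depth or length, per the file headers; 15.1% to 16.7% of a library's values were not whole. Per the submitters' processing notes, the tools were STAR, RSEM, FastQC, limma and Trim Galore on build mm10; their versions and roles, and the annotation, were not given in the sources used here. Per the labels' protocols the libraries were stranded; whether counting used strand is not stated, and 33 of the 64 members overlap another annotated gene, 5 of them a protein-coding one. Related genes can share reads, which RSEM divides by a model.

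The labelled age set the groups, and replicate numbers follow accession order. Nothing says that the libraries of 1 age are separate animals; the spread behind each p-value may therefore be technical. Within an age, pairs of libraries differed by 16.3 to 113 times the sampling noise, so no pair was treated as repeat deposits of 1 library. Counts were rounded, filtered with filterByExpr (18638 genes kept), scaled by TMM and tested by edgeR 4.0.16 (quasi-likelihood F test, R 4.3.3) over all genes, with Benjamini-Hochberg adjustment; printed adjusted p values are from this test unless another is named. The standard error is the log2 fold change divided by the square root of F. No set of genes was tested as a whole. The test was first tried on counts simulated from its own fitted model, with few changed genes. That differs from these data, so the trial does not give the error rate here. Alternatives were other scaling factors and filters, DESeq2 1.42.0, limma-voom (limma 3.58.1), a robust fit, an adjusted p under 0.01 and libraries left out.

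Coordinates and sequences were taken from RefSeq tables of GRCm38.p6, to which mm10 corresponds, by symbol (64 of 64 members, of which 54 have a start region in the table). The members and lists were chosen with earlier results of these data known. Values by library are given for 34 members: 9 named whatever their values, the largest mean CPM of each family, and up to 3 called rises and 3 called falls of a family at a mean of at least 1 CPM. For partners, the 3 largest called rises and falls at a mean of at least 10 CPM and 3 fixed receptors are given.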

Additional observations from a re-analysis of the deposited data

Results flagged for a closer look

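In 128 groups of 6 libraries (64 genes at 2 ages), 10 single libraries lay far from the others of their age, by Dixon's criterion, which chance meets in about 5% of groups. P3 replicate 1 accounts for 4 of them, each as the highest P3 library: Ntn1 at 6.94 CPM (next 0.963 CPM), Sema3c at 5.91 CPM (next 1.604 CPM), Epha1 at 5.02 CPM (next 1.01 CPM) and Efna1 at 5.38 CPM (next 3.18 CPM). That library also had the highest fibroblast and erythroid marker sums of its age (554 and 87.8 CPM, the other P3 libraries at most 167 and 52.8 CPM); their part in these values was not tested.

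The other 6 were spread over the libraries. Among high values, Epha6 stood at 2.597 CPM in P3 replicate 3 and Epha7 at 22.2 CPM in P3 replicate 5. Efnb2 stood at 72.7 CPM in P9 replicate 3, Plxna4 at 73.9 CPM in P9 replicate 5 and Plxnc1 at 42.3 CPM in P9 replicate 6. Efna5 was low, at 18.4 CPM, in P9 replicate 1. The direction and the call of Epha7, Efnb2, Plxna4, Plxnc1 and Efna5 between the ages were kept without the library named.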

How the results depend on the processing

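Over 23 alternatives the guidance genes counted as higher at P9 numbered 10 to 12 (11 as reported) and those counted as lower 33 to 36 (35 as reported). Leaving out 1 library at a time gave 10 to 11 and 34 to 36. The partner genes numbered 10 to 14 higher (14 as reported) and 16 to 22 lower (17 as reported); leaving out 1 library gave 12 to 14 and 16 to 20. Of the 46 members called, 43 kept their direction and call in every alternative; Plxnd1, Sema3a and Sema4f lost the call in 12, 2 and 12 of them. Epha3, Plxna2, Sema3c, Sema4g and Sema6a, not called as reported, passed in 1, 1, 2, 3 and 1. Signs turned for 2 members that were never called. Ntn1 turned to 0.91 on the log2 scale without P3 replicate 1, within a range of -1.002 to 0.91 when 1 library was left out. Sema4b (0.0012 as reported) stood at -0.0102 with median-ratio factors, -0.00582 with upper-quartile factors, -0.00664 with a mean of at least 1 CPM, -0.0105 in DESeq2 and -0.00124 in limma-voom, and between -0.0368 and 0.0639 with 1 library left out; the cause was not tested. The median log2 fold change of all genes lay between -0.0341 and 0.00458 under other scalings and filters. No paired analysis was possible because replicate numbers follow accession order and pair nothing. A level of 1 CPM rests on 25.8 to 38.5 counts per library, which limits Ntn1, Plxnb3 and Epha1.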
